A study of Mus musculus with 6 samples.

Results

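The glial cell line-derived neurotrophic factor (GDNF) family was followed in the cloned mouse astrocyte line C8-D1A, whose cells had been left untreated (control, 3 arrays) or given pulsed radiofrequency (PRF, 3 arrays), an electrical stimulation applied in short bursts and used against neuropathic pain. The family has 9 members: the ligand genes Gdnf, Nrtn, Artn and Pspn, the co-receptor genes Gfra1, Gfra2, Gfra3 and Gfra4, and the receptor gene Ret. They were taken as all probes whose listed transcript belongs to 1 of these genes in RefSeq, which gave 14 of the 56605 probes on the array, with at least 1 for each of the 9 genes. Total RNA was labelled with Cy3 and hybridised to 1-colour Agilent arrays. Both groups came from the same cloned line, grown for 6 days in medium with 10% serum and kept for 24 h without serum, so they stand for 1 clone in culture and not for astrocytes in tissue. The labels speak of 3 independent experiments. The settings and length of the stimulation and the time from it to extraction, not given in the sources used here, remain unknown.

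GDNF, neurturin, artemin and persephin are secreted dimers distantly related to transforming growth factor beta. Each binds a co-receptor that is anchored in the membrane by a lipid, GDNF preferring GFRα1, neurturin GFRα2, artemin GFRα3 and persephin GFRα4, and the complex then activates the receptor tyrosine kinase RET. GDNF also signals without RET, through the adhesion molecule NCAM, and binds syndecan-3. GDNF is a survival factor for dopaminergic, motor and sensory neurons that glial cells can make, and artemin and GDNF act on the sensory neurons that carry pain signals. The comparison of PRF with control cells asked how the expression of genes in astrocytes differs after this stimulation.

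Levels are log2 signals relative to the 75th percentile of each array, which lay between 544 and 674 signal units on the 6 arrays. Testing was limited to probes that the scanner software marked as well above background on all 3 arrays of either group or of both, and a probe is called higher or lower where its p-value from limma, adjusted over all 34838 tested probes by the Benjamini-Hochberg method, was below 0.05. Precision is limited by the 3 arrays in each group. Of the astrocyte markers, S100b, Vim, Glul, Fabp7, Aldoc, Sox9, Gfap, Aldh1l1, Slc1a2 and Aqp4 were well above background on all arrays, and no probe of Slc1a3 or Gja1 was on any array. The summed astrocyte level, in multiples of the 75th percentile, was 163 to 176 on control and 186 to 191 on PRF arrays. Of 10 tested, 1 was called higher (10%, beside 16.3% of all tested genes) and 0 lower (beside 13.5%). This was Glul, by 0.29 on 1 of its 3 tested probes (limma, adjusted p = 0.0177). In 5 of the 10 all PRF arrays lay above all control arrays, beside 27.7% of all tested probes. Genes of the oligodendrocyte and Schwann cell list were well above background on all arrays too (8 of 8, among them Sox10). Their summed level, in multiples of the 75th percentile, was 166 to 172 on control and 149 to 164 on PRF arrays. Mbp was called higher by 0.99 (limma, adjusted p = 0.00847), and Mog and Sox10 lower by 0.40 and 0.36 (adjusted p = 0.0202 and 0.0451). These are shares of 12.5% higher and 25% lower, beside 16.3% and 13.5% of all tested genes. The summed neuronal level was 52.1 to 54.4 and 49.8 to 53.9, with 5 of 8 markers well above background on all arrays and none of the probes of Rbfox3 and Stmn2 on any. Of the 5 neuronal markers tested, 2 were called higher: Elavl3 by 1.94 (SE 0.15, limma, adjusted p = 0.000346) and Snap25 by 0.97 (SE 0.20, adjusted p = 0.0127). This share was 40%, beside 16.3% of all tested genes called higher. Tubb3 (-0.14, limma, adjusted p = 0.350), Nefl (-0.29, adjusted p = 0.0580) and Nefm (-0.19, adjusted p = 0.0623) were lower but did not pass. For Nefl and Nefm all PRF arrays lay below all control arrays. The microglial sum was 8.88 to 9.28 and 13.2 to 17.9, with 3 of 7 markers well above background and Aif1, Cx3cr1, P2ry12 and Ptprc on no array. Most of it was Itgam, which rose by 0.86 (adjusted p = 0.00406), while Csf1r (0.16, adjusted p = 0.184) and Tmem119 (-0.25, adjusted p = 0.0601) did not pass. Marker values are those of each gene's probe with the highest mean. Csf1r had 2 tested probes, and the other was called lower. The fibroblast sum was 0.293 to 0.381 and 0.541 to 0.561, with 2 of 6 markers well above background on all arrays, 2 on some and Lum and Thy1 on no array. Col1a2 rose by 2.72 (limma, adjusted p = 0.000516) and Col1a1, on 1 of its 2 tested probes, by 0.44 (adjusted p = 0.0383). These were 50% of those tested, beside 16.3% of all genes. Dcn (0.34, limma, adjusted p = 0.366) and Pdgfra (-0.67, adjusted p = 0.0706) did not pass. Col1a2 was well above background on 1 control array and entered the test only through the PRF arrays. The part of these shifts in the results below was not tested.

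Within the family, Gdnf, Gfra3 and 1 of the 2 probes of Gfra4 were higher in PRF cells, and 1 of the 2 probes of Gfra2 was lower. Nrtn, Artn and Gfra1 did not pass the test, and Pspn and Ret were too dim to be tested. Of the 12 probes tested, 4 were called higher (33.3%) and 1 lower (8.33%), where 18.4% of all tested probes were called higher and 12.7% lower. In the same 5 probes the PRF arrays lay wholly above (4 probes) or below (1 probe) the control arrays, as they did in 27.7% and 22.5% of all tested probes. The median difference over the 12 probes was 0.010 on the log2 scale, beside 0.018 over all tested probes. With so few probes, these shares are a description of the family.

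**Figure D1:**
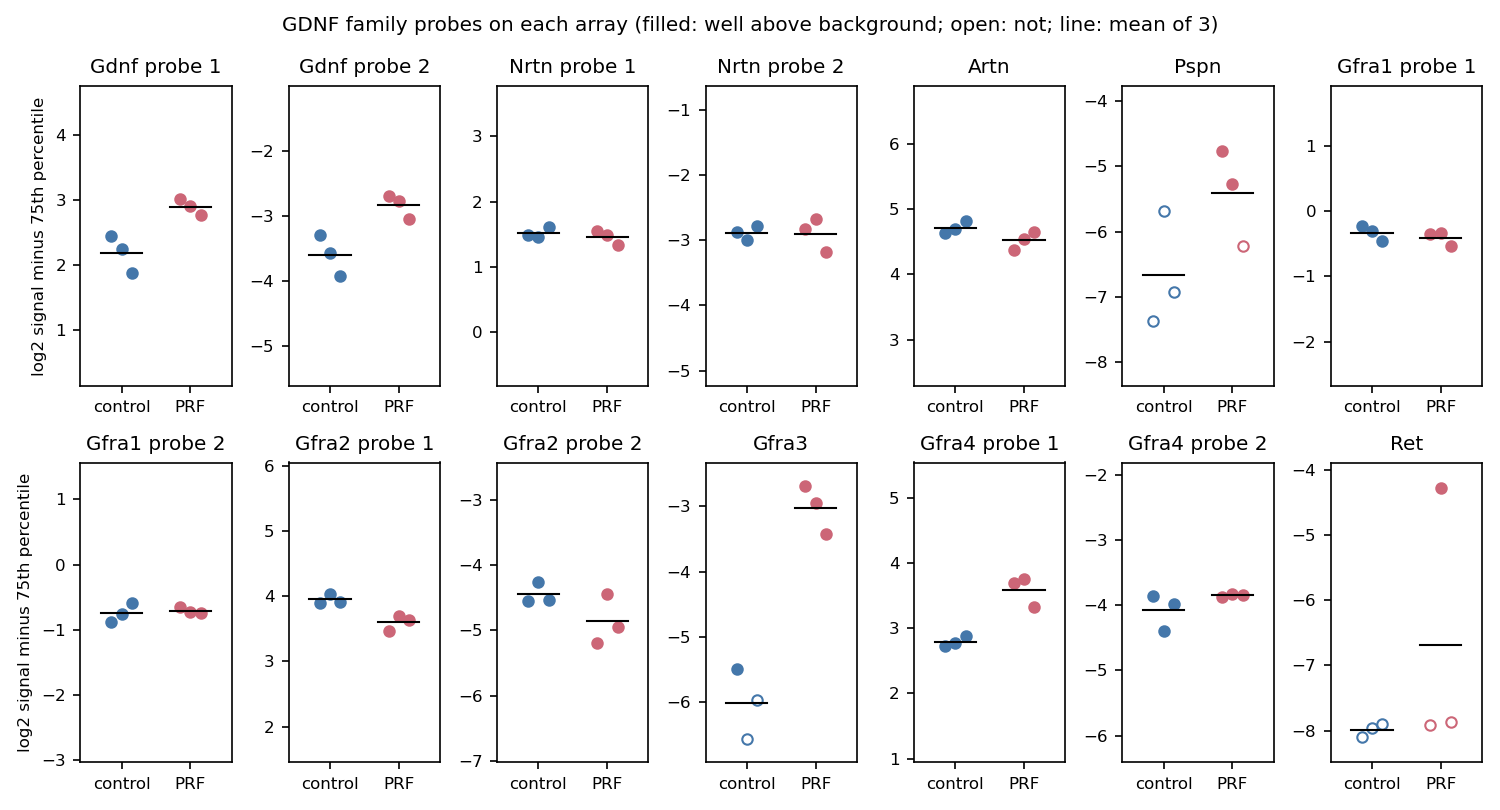
Level of each of the 14 GDNF family probes on each array, as log2 signal minus the array's 75th percentile; blue points are control arrays, red points PRF arrays, lines are means of 3, and open points are not well above background. All panels span the same number of log2 units, and where a gene has 2 probes, probe 1 is the one with the higher mean signal. The groups are apart in Gdnf (both probes), Gfra3, Gfra4 probe 1 and Gfra2 probe 1, and the Ret probe is well above background on 1 PRF array only.

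Gdnf, the founding ligand, was measured by 2 probes that list the same transcript, NM_010275. The first (A_55_P2045896) had log2 levels of 2.45, 2.25 and 1.87 in control cells, against 3.02, 2.90 and 2.77 after PRF. Every PRF array lay above every control array, and the gap between the nearest 2 arrays was 0.32. The difference of 0.70 (SE 0.16), or 1.63-fold, passed the test (limma, adjusted p = 0.0179). In RNA from whole cultures, a change in the RNA of each cell and a change in the mix of cells cannot be told apart. The second probe (A_55_P2745662) had levels of -3.30, -3.57 and -3.93 in control and -2.69, -2.77 and -3.05 in PRF cells. Its groups were apart as well, by 0.25, and its difference was 0.76 (SE 0.18), 1.69-fold (limma, adjusted p = 0.0213). Within each array the 2 probes kept nearly the same distance, 5.79 ± 0.038 for control and 5.73 ± 0.081 after PRF (n = 3 each, SD, exact permutation test, two-sided p = 0.4). Control replicate 3 was the lowest array on both probes. With normexp background correction the distance changed by 0.29. That correction adds an offset of 50 to each signal, which by itself makes differences between dim signals, such as those of the second probe, smaller.

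The Gdnf rise rests on few arrays. The first probe missed the threshold without PRF replicate 1 (adjusted p = 0.0589), without PRF replicate 2 (0.0574), with no scaling between arrays (0.0779) and within array rows 1 and 2 of the slide (0.221 and 0.219), and its difference ran from 0.51 to 0.83 over 19 alternatives. The second missed it under those settings too (0.0687, 0.0704, 0.0743, 0.200 and 0.245), and also without control replicate 2 (0.0601), with quantile normalization (0.0572), with no filter (0.0515) and with array row as a block (0.0510). With normexp background correction its difference was 0.38.

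RefSeq (GRCm38.p6) gives 2 starts for Gdnf on the plus strand of chromosome 15. The 300 bases around each (250 before to 50 after the start) are shown because Gdnf was the ligand gene that rose, with the matches to a short list of motifs in capitals. The first window is chr15:7809798-7810097 and the second chr15:7813477-7813776.
Gdnf first start: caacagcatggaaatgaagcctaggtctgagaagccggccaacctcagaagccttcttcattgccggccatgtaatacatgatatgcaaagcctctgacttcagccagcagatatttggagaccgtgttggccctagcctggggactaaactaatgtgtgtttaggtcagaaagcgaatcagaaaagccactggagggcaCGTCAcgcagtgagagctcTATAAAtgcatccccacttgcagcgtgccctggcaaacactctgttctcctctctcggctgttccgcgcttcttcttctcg
Gdnf second start: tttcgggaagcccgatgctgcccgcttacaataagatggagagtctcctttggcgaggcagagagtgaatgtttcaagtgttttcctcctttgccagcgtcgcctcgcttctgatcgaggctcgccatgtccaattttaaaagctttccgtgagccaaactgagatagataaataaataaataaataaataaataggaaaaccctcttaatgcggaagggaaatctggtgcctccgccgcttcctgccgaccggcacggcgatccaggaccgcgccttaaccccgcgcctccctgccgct
The motifs searched, on both strands, were the cyclic AMP response element TGACGTCA and its core TGACG, the AP-1 site TGANTCA, the heat shock element core GAANNTTC, the EGR sites GCGTGGGCG and GCGGGGGCG, and the TATA box TATAAA. The core TGACG is part of TGACGTCA, so these overlap. The first window held 1 TGACG core, read as its reverse complement 50 bases before the start, and 1 TATA box beginning 31 bases before it. Such a core lay in 20.8% and a TATA box in 13.6% of 32851 mouse windows of the same length. No motif of the list was found in the second window. Which start was in use in these cells was not measured.

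Neurturin is the ligand that prefers GFRα2. Its first probe (A_55_P2042086) had levels of 1.49, 1.46 and 1.61 in control and 1.54, 1.49 and 1.33 in PRF cells. These groups overlapped, and the difference of -0.068 (SE 0.084) did not pass (limma, adjusted p = 0.576). Its second probe (A_66_P117836) had -2.87, -3.00 and -2.79 against -2.83, -2.68 and -3.19, a difference of -0.015 (SE 0.14, limma, adjusted p = 0.946). Both probes list NM_008738.

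Artn, which encodes artemin, had 1 probe (A_55_P1978241, listed for NM_001284192) with levels of 4.63, 4.70 and 4.81 in control and 4.37, 4.55 and 4.66 in PRF cells. The highest PRF array lay just above the lowest control array. The difference of -0.19 (SE 0.097) did not pass (limma, adjusted p = 0.190), but it was called lower with no scaling (-0.33, adjusted p = 0.0327) and with spike-in scaling (-0.38, adjusted p = 0.0251). In unscaled signal units the control arrays read 16716, 16463 and 16761 and the PRF arrays 13089, 12737 and 13948, which did not overlap.

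Since scaling between arrays moves such small differences, ligands were also set against each other within each array, where it cancels. The first Gdnf probe stood above the first Nrtn probe by 0.67 ± 0.36 for control and 1.44 ± 0.035 after PRF (n = 3 each, SD), so Gdnf gained 0.77 on Nrtn, with no overlap between groups. Against Artn it gained 0.89, from -2.52 ± 0.38 to -1.63 ± 0.27 (SD, n = 3), also with no overlap. Both had an exact permutation p of 0.1 (two-sided, adjusted p = 0.175 over 14 such comparisons), the smallest that 3 against 3 arrays can give. Nrtn and Artn differed by 0.12 in their change (exact permutation p = 0.6).

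Persephin, the ligand that prefers GFRα4, was close to background. The Pspn probe (A_51_P312825, NM_008954) was well above it on no control array and on 2 of 3 PRF arrays. Its levels were -7.37, -5.69 and -6.93 in control and -4.76, -5.27 and -6.22 in PRF cells, and the groups overlapped. It was therefore not tested, and Pspn overlaps the gene Alkbh7 in RefSeq. Other members overlap RefSeq genes too: Gfra1 Gm46650 and Gm10007, Gfra2 Gm34588, Gfra3 Gm52376 and Gfra4 Mir6973b. Whether any probe lies in such an overlap was not determined.

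Among the co-receptors, Gfra1, which carries the GDNF signal, did not pass the test on either probe. Its first probe (A_52_P311022) had levels of -0.22, -0.30 and -0.46 in control and -0.34, -0.34 and -0.54 in PRF cells, a difference of -0.082 (SE 0.096, limma, adjusted p = 0.554). The second (A_52_P398998) had -0.88, -0.76 and -0.59 against -0.65, -0.73 and -0.74, a difference of 0.035 (SE 0.090, limma, adjusted p = 0.795) that was below 0 under 4 other scalings (from -0.0061 to -0.15). Groups overlapped on both probes, which list NM_010279.

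Gfra2, the neurturin co-receptor, was lower on its first probe. That probe (A_55_P1968703) had levels of 3.90, 4.04 and 3.92 in control and 3.46, 3.69 and 3.64 in PRF cells, with all PRF arrays below all control arrays. The difference of -0.35 (SE 0.086), 1.28-fold lower, passed (limma, adjusted p = 0.0244). The second probe (A_66_P104099, also listed for NM_008115) had -4.55, -4.25 and -4.53 against -5.20, -4.44 and -4.94, and its difference of -0.42 (SE 0.20) did not pass (limma, adjusted p = 0.162), with PRF replicate 2 inside the control range. The call on the first probe ended when control replicate 1, 2 or 3 was left out (adjusted p = 0.0517, 0.0805 and 0.0590), when PRF replicate 1 was (0.0584), with no filter (0.0538), with array row as a block (0.0581) and within rows 1 and 2 (0.367 and 0.267). The second was called lower with no scaling (adjusted p = 0.0435), with quantile normalization (0.0359) and without PRF replicate 2 (0.0326). With normexp, whose offset shrinks differences between dim signals, the difference of the second probe was -0.058 (limma, adjusted p = 0.652). Within row 1 it was 0.096.

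Gfra3, the artemin co-receptor, known from sensory and sympathetic neurons, had the largest difference among the family's tested probes. Its probe (A_55_P1984103, NM_010280) had levels of -5.49, -6.56 and -5.97 in control and -2.69, -2.96 and -3.42 in PRF cells. In unscaled units these were signals of 15.0, 6.73 and 9.48 against 98.1, 70.2 and 51.8. The control signal was well above background on 1 of 3 arrays and the PRF signal on all 3, and the gap between the nearest arrays of the groups was 2.08. The difference of 2.99 (SE 0.30), 7.94-fold, passed (limma, adjusted p = 0.00105). The size is uncertain because the control signals lie at background. With normexp correction the difference was 0.98, but the added offset of 50 exceeds these control signals and by itself shrinks the difference. A probe this dim in control cells entered the test only by being bright after PRF: of 463 tested probes that were well above background on 1 control array, 63.7% were called higher. The call was kept under 17 of 18 alternatives and missed within array row 2 (adjusted p = 0.0609).

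Gfra4, the persephin co-receptor, differed between its 2 probes, which list different transcripts. The first (A_55_P2039196, NM_001271002) had levels of 2.73, 2.76 and 2.88 in control and 3.69, 3.75 and 3.32 in PRF cells. Its groups were apart by 0.43, and the difference of 0.79 (SE 0.13), 1.73-fold, passed (limma, adjusted p = 0.00552). The second (A_55_P2039190, NM_020014) had -3.85, -4.39 and -3.99 against -3.87, -3.83 and -3.85. These groups overlapped, and the difference of 0.23 (SE 0.14) did not pass (limma, adjusted p = 0.259) and was -0.11 with quantile normalization. Within arrays the first probe gained 0.56 on the second, from 6.87 ± 0.29 to 7.43 ± 0.23 (SD, n = 3), with no overlap (exact permutation p = 0.1, adjusted p = 0.175). The call on the first probe was kept under 18 of 19 alternatives and missed within array row 2 (adjusted p = 0.231). Among all genes with 2 or more tested probes, 1310 of 5453 had some probes called and others not, and 531 had all called the same way.

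RefSeq gives 2 starts for Gfra4 on the minus strand of chromosome 2, at chr2:131042633-131042932 and chr2:131043039-131043338. Both windows are shown because the probes of the gene list different transcripts and differed in their change, with the same motifs in capitals.
Gfra4 start at lower coordinates: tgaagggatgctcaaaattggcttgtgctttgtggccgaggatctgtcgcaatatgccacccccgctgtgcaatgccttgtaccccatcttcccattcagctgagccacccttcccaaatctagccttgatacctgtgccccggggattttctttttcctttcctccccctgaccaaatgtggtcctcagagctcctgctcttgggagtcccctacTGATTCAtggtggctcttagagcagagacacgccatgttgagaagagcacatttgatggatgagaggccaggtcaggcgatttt
Gfra4 start at higher coordinates: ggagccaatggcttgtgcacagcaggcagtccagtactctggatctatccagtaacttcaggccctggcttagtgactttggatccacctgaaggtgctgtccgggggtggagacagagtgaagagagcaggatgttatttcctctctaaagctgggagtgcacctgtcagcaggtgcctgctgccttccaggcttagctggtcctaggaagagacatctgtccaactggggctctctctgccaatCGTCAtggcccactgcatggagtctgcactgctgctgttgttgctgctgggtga
The former held 1 AP-1 match that begins 34 bases before the start, as 7.81% of all windows did, and the latter 1 TGACG core, read as its reverse complement, beginning 4 bases before it. Which of the 2 starts each probe's RNA came from was not measured. In all, 6 members had a window in the RefSeq table used here. Among the other members with a window, Artn had 1 heat shock element core, GAACCTTC, 161 bases before the start (such cores lay in 7.86% of all windows), and Nrtn, Pspn and Gfra1 had no match.

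The co-receptors moved unequally within arrays as well. Gfra4 on its first probe gained 0.88 on the first probe of Gfra1 and 1.15 on that of Gfra2, with no overlap between groups in either case (exact permutation p = 0.1 for each, adjusted p = 0.175). Gfra1 gained 0.27 on Gfra2, with overlap (exact permutation p = 0.2, adjusted p = 0.311).

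**Figure D2:**
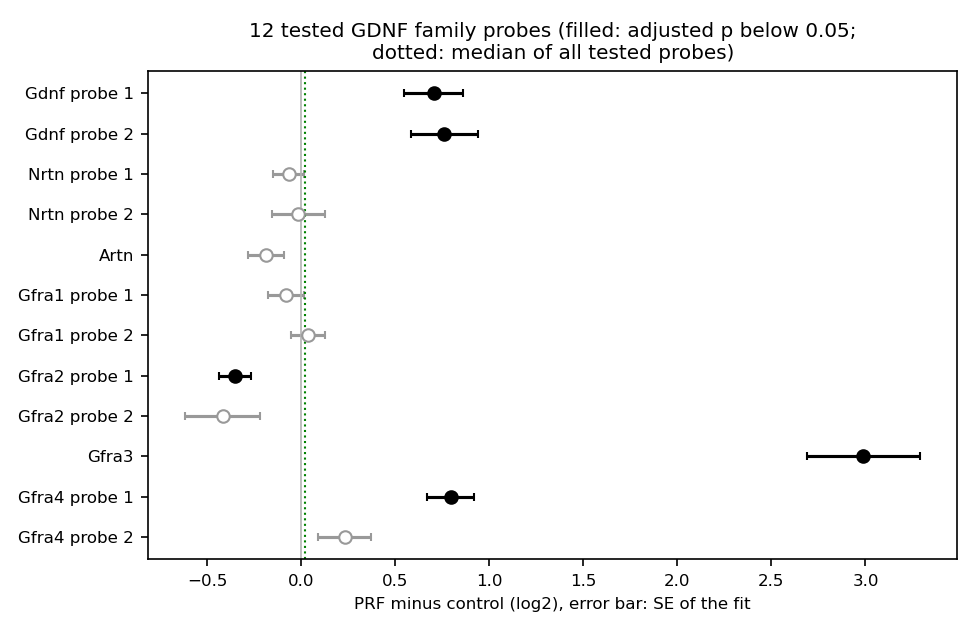
Difference between PRF and control arrays (log2, 3 arrays each) for the 12 tested probes, with the standard error of the fit; filled points passed an adjusted p of 0.05 and the dotted line is the median of all tested probes, 0.018. Gfra3 stands at 2.99, both Gdnf probes and Gfra4 probe 1 lie between 0.70 and 0.79, and Gfra2 probe 1 lies at -0.35.

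Ret, the kinase through which all 4 ligands signal, was not detected in control cells. Its probe (A_55_P2160676, listed for NM_001080780) read 2.47, 2.55 and 2.51 signal units in control and 2.62, 28.0 and 2.37 in PRF cells. Of the 6 arrays, PRF replicate 2 alone was well above background, with a log2 level of -4.28 where the other 5 lay between -8.09 and -7.87. The probe was not tested, and 1 array gives no replicated value.

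The other genes of the pathway were taken from 5 lists with 67 genes, each gene by its probe with the highest mean. Of 58 tested, 12 were higher (20.7%) and 6 lower (10.3%) in PRF cells, beside 16.3% and 13.5% of 15063 tested genes. The median difference was -0.0065, and the 2 shares lay near those of all genes.

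Receptors that can act in place of RET, or modulate it, had 1 of 7 tested genes lower (14.3%, near the 13.5% of all genes) and 0 higher (limma, with 1 each way at an unadjusted p below 0.05). Ncam1, the NCAM gene, had levels of 3.57 ± 0.057 and 3.53 ± 0.074 (SD, n = 3, limma, adjusted p = 0.705), and Sdc3, which encodes syndecan-3, 0.91 ± 0.029 and 1.04 ± 0.071 (adjusted p = 0.203, a difference of 0.12 that was below 0 with no scaling and with spike-in scaling). Gas1, a membrane protein related to the GFRα co-receptors, fell by 0.71 (SE 0.14, adjusted p = 0.0118). Gfral, the receptor of the distant relative GDF15 and named after its values were seen, did not rise well above background in any sample.

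Of the genes that cleave or sort GDNF, 0 of 4 tested passed (limma), beside 16.3% higher and 13.5% lower among all tested genes. Of these 4, 1 had an unadjusted p below 0.05. This was Furin, a protease that cleaves proGDNF, with 3.96 ± 0.066 and 4.19 ± 0.067 (SD, n = 3, limma, adjusted p = 0.0521). It passed under 2 of 19 alternatives, 1 of them normexp (adjusted p = 0.0228). Its difference of 0.23 was 0.089 with no scaling (adjusted p = 0.566) and 0.040 with spike-in scaling (adjusted p = 0.714). Sorl1, a sorting receptor for GDNF, was well above background in no sample and was not tested. Its PRF arrays lay above its control arrays by 0.74, at signals of 3.75 to 5.49 against 2.38 to 2.46 units. With no filter it was called higher (limma, adjusted p = 0.00976), but signals at background do not measure a change.

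Among adaptors and kinases that bind RET or act just below it, 4 of 24 tested genes rose (16.7%) and 2 fell (8.33%). These shares lay near the 16.3% and 13.5% of all tested genes. Irs2, an adaptor also of the insulin receptor, rose by 0.94 (SE 0.15, limma, adjusted p = 0.00567), Crk by 0.53 on 1 of its 2 probes and Gab1, a docking protein, by 0.53. Grb7 was well above background on 1 control array and, like Gfra3, entered the test only through the PRF arrays; of all tested probes with 1 such control array, 63.7% were called higher. Its difference of 1.85 (SE 0.33) is thus uncertain in size, and it was 0.49 with normexp, whose offset shrinks differences between dim signals. Dok4, a docking protein that binds RET, fell by 0.48 and Cd2ap by 0.29; these 2 were named after their values were seen, and Cd2ap lost its call without any of the 3 control arrays or PRF replicate 1 and with array row as a block (adjusted p from 0.0506 to 0.0661).

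Genes known to respond to RET in kidney or testis, most of which respond to other receptor kinases too, had 5 of 13 tested higher and 1 lower. These are shares of 38.5% and 7.69%, beside 16.3% and 13.5% of all tested genes, and with 13 genes they are a description. The ETS factors Etv4 and Etv5, classical targets, had differences of -0.25 (adjusted p = 0.0641) and -0.16 (adjusted p = 0.238). Etv4 was called lower with no scaling, quantile normalization, median scaling, spike-in scaling, normexp and without PRF replicate 3 (adjusted p from 0.00800 to 0.0491), and Etv5 with spike-in scaling (adjusted p = 0.0477). Spry2 and Dusp6, feedback inhibitors of the MAP kinase pathway, both rose by 0.81 (SE 0.083 and 0.099, limma, adjusted p = 0.00109 and 0.00208). Bcl6b, a transcriptional repressor, rose by 1.95 (SE 0.17, 1.16 with normexp), and the ligand gene Wnt11 by 0.98 (SE 0.17, 0.39 with normexp). Lhx1, not well above background in control cells, entered the test only through the PRF arrays. Its difference of 2.61 (SE 0.41, limma, adjusted p = 0.00524) starts from control signals at background, so its size is uncertain. Lhx1 is 1 of the 5 genes counted as higher. How often tested probes without any such control array were called higher was not determined. The processed signal of Lhx1 was at least 2.60-fold higher on the PRF arrays, a bound set by the lowest signal that counts as above background. The p-value belongs to the difference of 2.61 and does not test that bound. With normexp its difference was 0.58, under that bound, but the offset of 50 by itself shrinks differences between signals this dim. Spry1, named after its value was seen, fell by 0.64 (SE 0.090, adjusted p = 0.00362).

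Of transcription factors known to act on Gdnf or Ret in other tissues, 3 of 10 tested rose (30%) and 2 fell (20%). Over all tested genes the shares were 16.3% and 13.5%, and with 10 genes the list's shares are a description. Nr4a2 rose by 0.59 (limma, adjusted p = 0.00660, 0.0679 with no scaling) and Gata3 by 0.53 (adjusted p = 0.0113, 0.0604 with no scaling and 0.0622 with spike-in scaling). Eya1 fell by 0.39 (adjusted p = 0.0165, 0.0565 and 0.0531 without control replicate 2 and 3). Sox10, named after its value was seen, fell by 0.36 (adjusted p = 0.0451), a call that ended on leaving out any array but PRF replicate 3, with adjusted p-values of 0.0941 to 0.132, and with no filter, either block or single rows (0.0658 to 0.479).

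**Figure D3:**
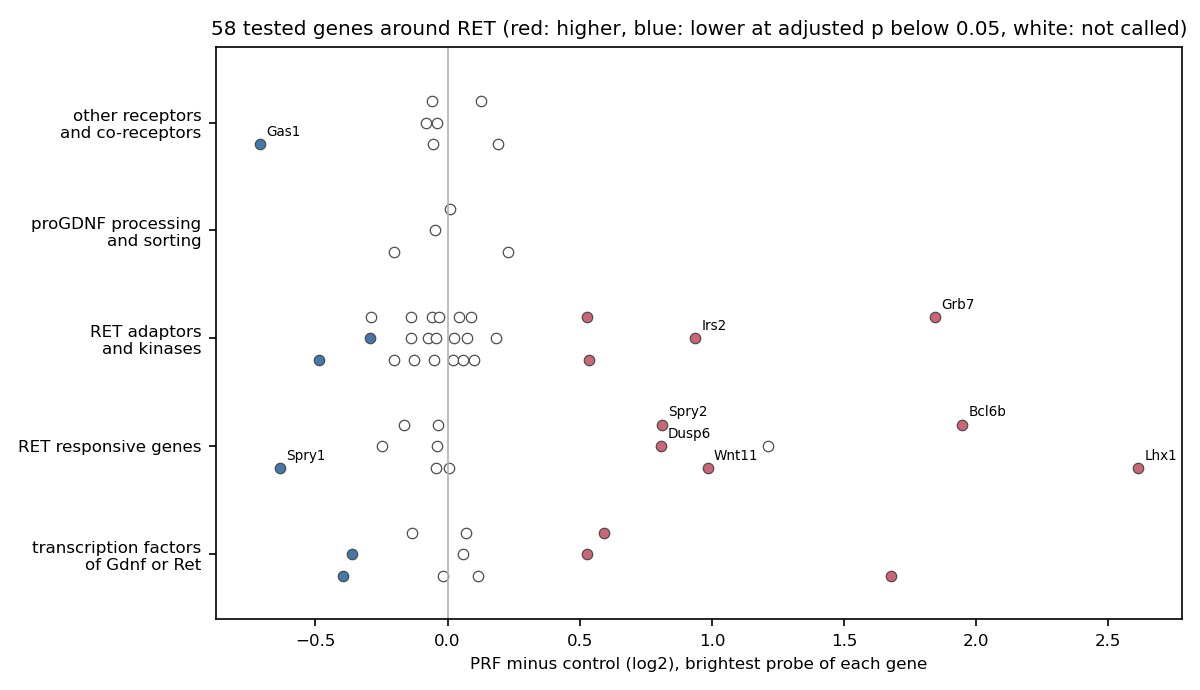
Difference between PRF and control arrays (log2) for the 58 tested pathway genes, by list; each point is the probe of a gene with the highest mean, red points were called higher, blue points lower, and the vertical spread within a list only separates points. Most genes lie close to 0, and the 3 points beyond 1.8 are Grb7, Bcl6b and Lhx1.

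The genes most like each member over the 6 arrays were found among 15059 other tested genes by the root mean square difference between log2 profiles, each centred on its own mean. For Gdnf they were Fgd3, Gm5088 and Nppb (0.048, 0.050 and 0.058). For Gfra4 they were Snap23, Krt222 and Supt7l (0.025, 0.046 and 0.052), and for Gfra3 Cd79b, Fitm1 and AI854703 (0.077, 0.100 and 0.126). For Gfra2 they were Hyal2, Prmt9 and Fbxl19, all within 0.035. Profiles that hardly move are close to many others: for Nrtn these were Eef1akmt1, Hint3 and Catsper2, for Artn Arhgef7, Zfp110 and Ppard, and for Gfra1 Dnajc2, Cbl and B230219D22Rik (0.020 to 0.037). All points share the same 6 arrays.

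**Figure D4:**
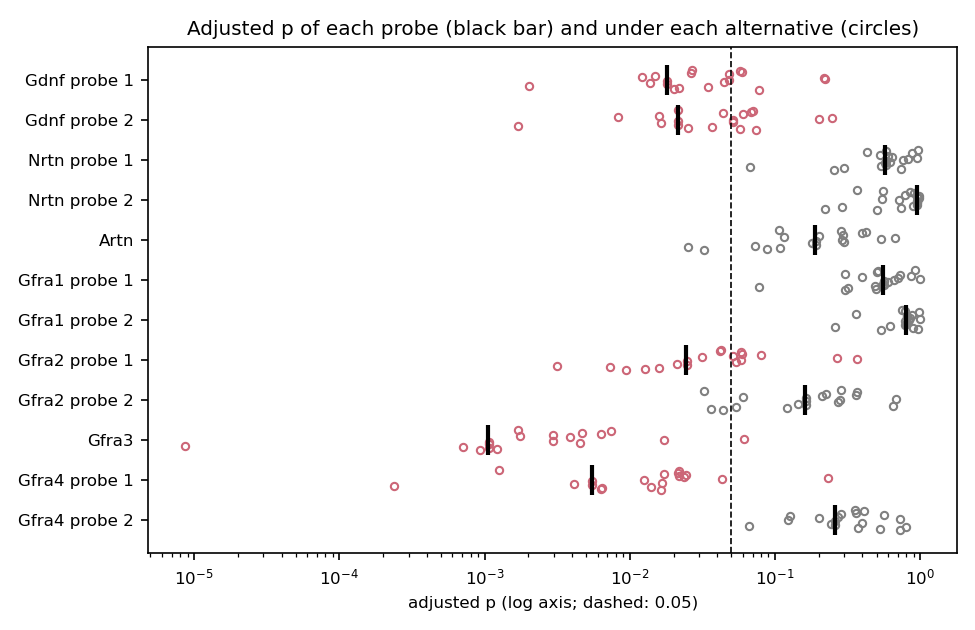
Adjusted p of each tested GDNF family probe as reported (black bar) and under each alternative (circles), on a log axis with the threshold of 0.05 dashed. Circles of Gfra3 and Gfra4 probe 1 lie left of the line but for 1 each, while those of both Gdnf probes and Gfra2 probe 1 lie on both sides.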

How the data were processed

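Per the file headers, the deposited intensity values are spot signals made by the authors with Agilent Feature Extraction 10.7.3.1, background-corrected within each array and not normalized between arrays; all 6 arrays lie on 1 slide scanned once. The deposited flags are other per-spot values per the file headers. The authors' value table held the processed signal itself for 99.9% of probes on every array (relative difference up to 0.0001), on a linear scale with no centring.

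Control spots and outlier spots (63 to 85 per array) were left out, no family spot among them; spots of a probe were averaged as log2 intensity and each array's 75th percentile was subtracted. Names came from RefSeq transcripts of GRCm38.p6 (32994 of 56605 probes); the array design refers to mm9, so other coordinates are not given. Group was the only term in limma 3.58.1 (R 4.3.3). The files hold no mean signal, so normexp (offset 50) used the median signal. The offset by itself makes differences between dim signals smaller, so normexp values of dim probes do not measure the size of a change. The 9 members, the lists and the tests were chosen with earlier results of these data known. Named were all members, 9 fixed pathway genes, up to 4 called genes per list whose groups were apart, and the 3 genes most like each tested member. One gene that this rule names is not reported here. Alternatives were other scalings, background correction, filters, blocks and left-out arrays; within-array differences were added after seeing the data. On 34826 simulated probes modelled on PRF against control, 100 were changed 1.5-fold and 100 were changed 2-fold. Of these, limma recovered 35% and 63%. In the data 10833 of 34838 probes were called. The Benjamini-Hochberg cut depends on how many probes change, so the recovered shares do not give the power of this comparison.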

Additional observations from a re-analysis of the deposited data

How the results depend on the processing

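Of 14 family probes, 12 of them tested, 4 were called higher and 1 lower. The count higher was 2 with no scaling and within array row 1, 0 within row 2, and 2 to 4 without any 1 array. The count lower was 3 with no scaling, 2 with quantile normalization or spike-in scaling, 0 with no filter, with array row as a block and within rows 1 and 2, and 0 to 2 without any 1 array. Of the pathway genes, 12 were higher and 6 lower; these became 6 and 0 within row 1 and 0 and 0 within row 2, 14 were lower with spike-in scaling, 17 were higher with the mean of each gene's tested probes and 15 at an unadjusted p below 0.05, and 11 to 13 were higher and 3 to 7 lower without any 1 array. Rows hold 3 arrays each, and 3209 and 162 probes of all were called within them, against 10833. The median difference of all tested probes was 0.018, and -0.12 with no scaling and -0.17 with spike-in scaling. Of the called probes 59.2% were higher, 38.3% with no scaling, 41.4% with quantile normalization, 29.2% with spike-in scaling, 83.3% within row 1 and 99.4% within row 2.

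Deviations of same-numbered arrays from their group means had correlations of 0.189, -0.133 and 0.0955 over 32019 probes. Other pairs ran from -0.229 to 0.134. Deviations from the mean of so few arrays are tied to each other, so these values can neither show nor exclude pairing. The labels do not say that the number marks the experiment, and the numbers were not taken to pair the arrays. With a replicate block 4 family probes were higher and 1 lower, and 13 pathway genes higher and 5 lower.

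Signs turned for differences that were not called. The second Nrtn probe had 0.067 with array row as a block, 0.15 within row 1 and -0.12 to 0.13 without any 1 array. The second Gfra1 probe had -0.11 with no scaling, -0.0061 with quantile normalization, -0.019 with median scaling, -0.15 with spike-in scaling and -0.033 to 0.11 without any 1 array. The second Gfra2 probe had 0.10 within row 1 and the second Gfra4 probe -0.11 with quantile normalization. Ncam1 had 0.026 within row 1 and -0.071 to 0.0031 without any 1 array, and Sdc3 -0.016 with no scaling and -0.065 with spike-in scaling. Without any 1 array Eef1akmt1 ran from -0.11 to 0.0076, Hint3 from -0.094 to 0.00048, Catsper2 from -0.093 to 0.0055 and Dnajc2 from -0.17 to 0.0070 (0.0057 within row 1). Why these values moved was not tested. For Gfra3, Pspn and Ret, signal over background limits the values.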
